A study of Mus musculus with 6 samples.

Results

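The small leucine-rich proteoglycans are secreted matrix proteins built around a run of leucine-rich repeats, and most carry chondroitin, dermatan or keratan sulfate chains. They were followed in the gastrocnemius, a calf muscle of mostly fast fibres that ends in the Achilles tendon. The members were chosen by gene name: Kera, Fmod, Chad, Prelp, Omd, Aspn, Lum, Dcn, Bgn and Ogn. Of these 10 genes, 9 had a probe that could be matched to the gene, and all 9 were among the 20906 genes tested. Of those tested 13846 had a gene symbol, and the rest were accessions without one, each counted as a gene. No probe was matched to Prelp, which was not analysed here. Total RNA from male mice aged 13 weeks (young, 3 samples) and 25 months (old, 3 samples) was labelled with Cy3 and hybridised to single-colour Agilent arrays, 1 per sample. The series describes the old muscle as atrophied by aging. The strain is not given in the sources used here, and the labels do not tie each sample to its own animal. The spread that the p-values rest on is that of these samples and may be technical in part.

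These proteoglycans bind the surface of collagen fibrils and set fibril diameter and spacing, and several also hold growth factors in the matrix. Decorin (Dcn), biglycan (Bgn), lumican (Lum) and osteoglycin (Ogn) are made by fibroblasts throughout the connective tissue of muscle. Keratocan (Kera), fibromodulin (Fmod) and chondroadherin (Chad) are known from dense tissues such as tendon, cornea and cartilage, and are called tendon-rich below. Osteomodulin (Omd) and asporin (Aspn) are known from bone, tendon and cartilage and were placed in neither group. The genes lie in clusters. In RefSeq's gene order for GRCm38.p6, Dcn, Lum and Kera are consecutive coding genes on chromosome 10, Aspn, Omd and Ogn on chromosome 13, and Prelp and Fmod on chromosome 1. Chad on chromosome 11 and Bgn on chromosome X stand alone.

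Upstream sequence is shown for Fmod and Chad, which were lower on every old array, and for Ogn, whose values overlapped between the ages. The sequences are RefSeq's (GRCm38.p6), 250 bases that end at the base before the annotated start, written 5′ to 3′. Capitals mark CANNTG, the E-box that basic helix-loop-helix factors such as the tendon factor scleraxis bind, and TATAAA, the TATA box, searched on both strands.
Fmod, chr1:134037004-134037253, plus strand: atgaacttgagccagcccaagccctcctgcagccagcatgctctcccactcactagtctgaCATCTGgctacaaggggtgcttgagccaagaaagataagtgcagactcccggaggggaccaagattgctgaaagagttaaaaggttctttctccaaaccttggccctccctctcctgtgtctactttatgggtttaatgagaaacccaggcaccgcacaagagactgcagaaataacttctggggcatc
Chad, chr11:94564797-94565046, plus strand: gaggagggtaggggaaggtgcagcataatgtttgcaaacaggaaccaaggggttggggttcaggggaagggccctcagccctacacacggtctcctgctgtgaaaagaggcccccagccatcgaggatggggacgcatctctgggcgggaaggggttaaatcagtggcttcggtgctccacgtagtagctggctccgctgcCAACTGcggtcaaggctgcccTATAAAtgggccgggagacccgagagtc
Ogn, chr13:49607765-49608014, plus strand: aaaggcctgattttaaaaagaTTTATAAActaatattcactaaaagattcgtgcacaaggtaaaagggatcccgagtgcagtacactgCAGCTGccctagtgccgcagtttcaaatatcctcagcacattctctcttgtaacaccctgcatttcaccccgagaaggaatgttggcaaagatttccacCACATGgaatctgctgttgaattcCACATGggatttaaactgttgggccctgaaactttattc
Fmod and Chad held 1 E-box each and Ogn held 3. TATAAA was found once in Chad and not in Fmod. Ogn had 2 overlapping matches to it, on opposite strands of the same stretch. Of 32841 promoter windows of this length in the table, 66.2% held CANNTG and 12.4% held TATAAA. Of the 8 members in the table, 5 held the first and 3 the second. The windows of Kera and Prelp lie inside their gene models and are not shown. Kera's held neither motif. A match is a description of the letters and not a binding site.

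Over the whole series, limma called 52 of 20906 genes at an adjusted p under 0.05 (Benjamini-Hochberg over all genes), 40 higher and 12 lower in old muscle, or 26 higher of 42 with median centring and 39 higher of 64 with normexp. Between 49.9% and 54.8% of gene spots were well above background. Across genes, old replicate 1 correlated at 0.976 with each of the other old arrays and at 0.969 to 0.982 with the young ones. The correlation of old replicates 2 and 3 with each other was 0.987. Old replicate 1 thus stood apart from its own age. The number of arrays limits the precision, and an exact permutation test of 3 against 3 cannot go below p = 0.1.

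All 9 proteoglycans had a lower mean in old than in young muscle, as had 58.8% of all genes, with a median log2 difference of -1.21 against -0.08 for all genes tested. In 6 of the 9, all 3 old arrays lay below all 3 young arrays, which was so for 15% of all genes. Of these 9 only Kera passed limma's threshold, which called 0.249% of genes in either direction and 0.0574% as lower in old. The differences were larger in the tendon-rich members (-1.32 to -3.20) than in the interstitial members (-0.07 to -0.87). In RNA from whole muscle, fewer cells of a type and less RNA per cell cannot be told apart.

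**Figure D1:**
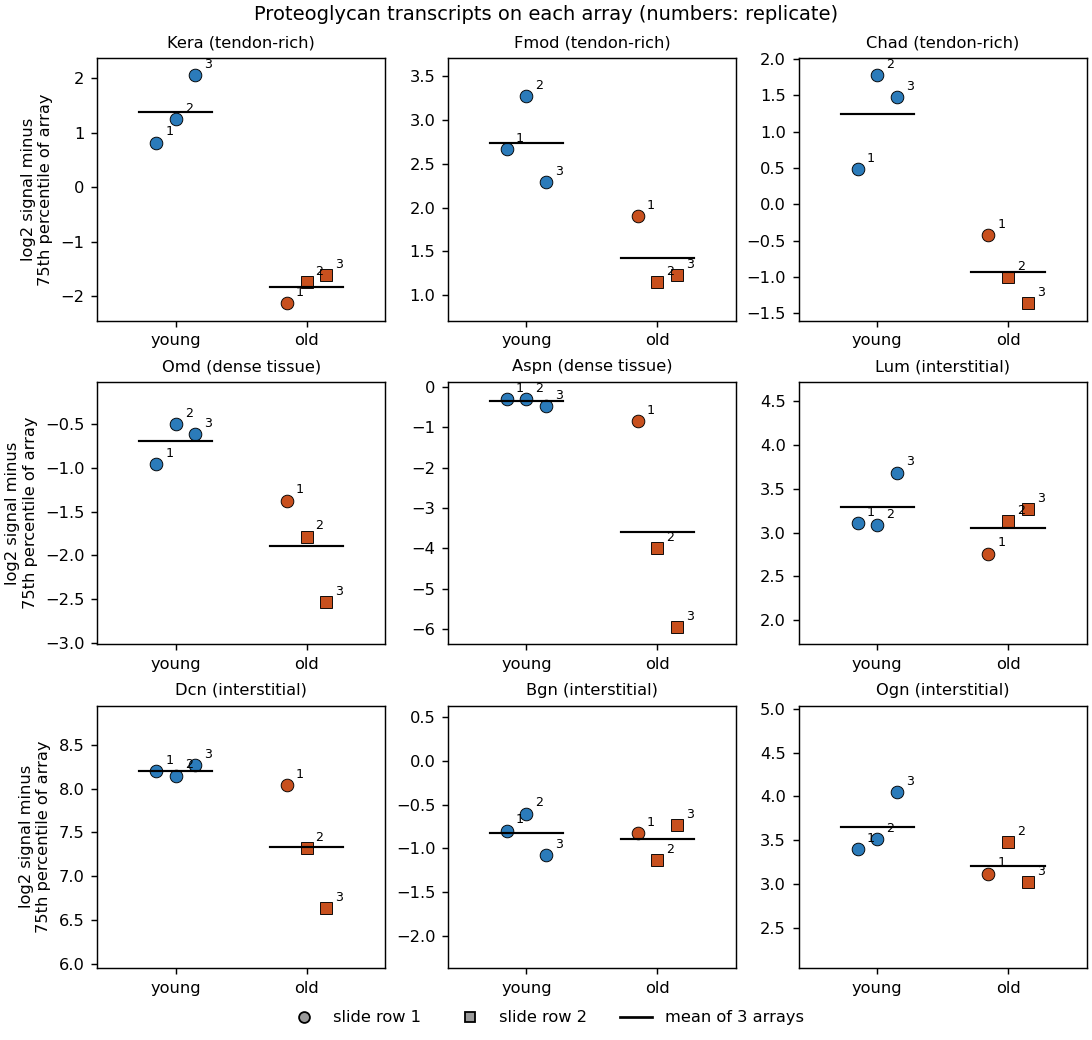
Level of each proteoglycan transcript on each array, as log2 signal minus the array's 75th percentile (vertical axes span at least 3 log2 units and differ between panels); points are arrays with their replicate number, circles slide row 1, squares slide row 2, bars the mean of 3. Kera's ages are 2.43 apart at their nearest, while those of Lum, Bgn and Ogn overlap.

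Levels below are the log2 processed signal minus the 75th percentile of the same array's gene probes, so 0 is a fairly bright probe. They are not compared between genes, since each probe has its own brightness. Differences are old minus young with their standard error, 3 arrays per age.

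Kera, a keratan sulfate proteoglycan of cornea and tendon, had levels of 0.82, 1.25 and 2.05 in young replicates 1 to 3 and of -2.13, -1.74 and -1.61 in old replicates 1 to 3. The ages were 2.43 apart at their nearest points, more than the range of 1.24 within the young arrays or 0.52 within the old. Kera fell by 3.20 ± 0.33 on the log2 scale (95% interval -3.99 to -2.41), a 9.21-fold decrease, with a limma adjusted p of 0.0265. The array carries the Kera probe in 10 spots, whose standard deviation on an array ran from 0.0869 to 0.142. Spot noise was thus small beside the difference between the ages. Kera's call was lost without young replicate 1 (adjusted p = 0.0543) or 2 (0.104) and without old replicate 2 (0.107) or 3 (0.123) in limma's fit, with log2 differences of -3.25 to -3.48. It was kept without young replicate 3 or old replicate 1. It was also lost with slide row as a block (-3.51, limma adjusted p = 0.0746) and with no filter on dim probes (0.0963).

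Chad, a cartilage and tendon protein that binds collagen and integrin, had levels of 0.49, 1.78 and 1.48 in young muscle and of -0.42, -1.001 and -1.36 in old muscle. The ages did not overlap and lay 0.91 apart at their nearest, less than the range of 1.29 within the young arrays. The difference was -2.18 ± 0.39 (95% interval -3.10 to -1.25), or 4.52-fold, with a limma adjusted p of 0.106. Chad passed when arrays were centred on their medians (-2.30, adjusted p = 0.0489), a setting that moved the median of all genes to -0.21.

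Fmod, which binds type I collagen and shapes tendon fibrils, had levels of 2.66, 3.27 and 2.29 in young muscle and of 1.90, 1.14 and 1.22 in old muscle. Old replicate 1 was the highest of the old arrays and lay 0.39 below the lowest young array. The difference was -1.32 ± 0.32 (95% interval -2.08 to -0.56), or 2.5-fold, with a limma adjusted p of 0.167.

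Among the members of mineralising and dense tissue, Omd had levels of -0.95, -0.50 and -0.62 in young muscle and of -1.37, -1.78 and -2.53 in old muscle. Osteomodulin is a keratan sulfate proteoglycan of bone. The ages did not overlap, the difference was -1.21 ± 0.31 and the limma adjusted p was 0.186.

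Aspn encodes asporin, a relative of decorin that binds TGF-beta. It had -0.30, -0.31 and -0.47 in young muscle, -0.85 on old replicate 1, and -4.00 and -5.95 on old replicates 2 and 3, where its single spot was not well above background. The old arrays thus spanned 5.10, against 0.17 for the young ones. The difference was -3.24 ± 1.14 (limma adjusted p = 0.281), and -2.07 without old replicate 3. If old replicate 1 was left out it was -4.62 with an adjusted p of 0.0300, a size that rests on signals near background.

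The interstitial members showed smaller differences. Dcn, the dermatan sulfate proteoglycan that binds collagen, TGF-beta and myostatin, was tightly grouped in young muscle at 8.198, 8.15 and 8.26. Its old levels were 8.04, 7.32 and 6.63. Old replicate 1 lay just 0.10 below the lowest young array, and old replicates 2 and 3 lay further down. The difference was -0.87 ± 0.34 (95% interval -1.69 to -0.06, limma adjusted p = 0.313), and -0.52 without old replicate 3. No spot was saturated on any array, Dcn's bright spot included.

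Lum, a keratan sulfate proteoglycan of cornea and of collagen-rich stroma, had 3.11, 3.08 and 3.69 in young muscle and 2.76, 3.13 and 3.27 in old muscle. The ages overlapped, with a difference of -0.24 ± 0.24 (95% interval -0.80 to 0.32), which was -0.04 without young replicate 3 and -0.09 without old replicate 1. Bgn, whose protein carries chondroitin or dermatan sulfate and engages toll-like receptors when released, had -0.80, -0.60 and -1.08 against -0.82, -1.13 and -0.74. Its difference of -0.07 ± 0.20 (95% interval -0.54 to 0.40) was the smallest of the 9 and changed sign in 3 of 18 alternative fits. Ogn, also called mimecan, had 3.40, 3.51 and 4.05 against 3.12, 3.48 and 3.03, overlapping, with a difference of -0.45 ± 0.23 (95% interval -1.002 to 0.11), or -0.25 without young replicate 3. Limma's adjusted p was 0.655 for Lum, 0.881 for Bgn and 0.419 for Ogn. The intervals still allow a lower level in old muscle of 0.80 for Lum and 0.54 for Bgn on the log2 scale.

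**Figure D2:**
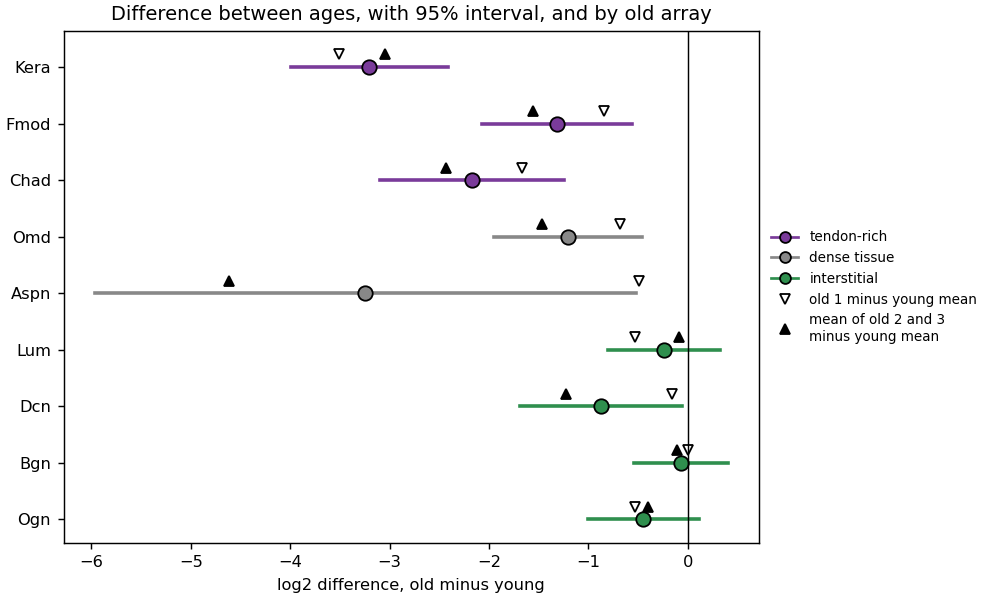
Log2 difference, old minus young, of each proteoglycan (circles) with its 95% interval (horizontal lines); open triangles give old replicate 1 and filled triangles the mean of old replicates 2 and 3, each minus the young mean. For Kera the triangles are at -3.51 and -3.05, close together, and for Aspn at -0.49 and -4.62.

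The old arrays did not behave alike across the family. Old replicate 1 shared a row of the slide with the 3 young arrays, while old replicates 2 and 3 lay in a row with no young array. Within the shared row, old replicate 1 lay below the young mean by 3.51 for Kera, 1.67 for Chad, 0.84 for Fmod, 0.68 for Omd, 0.54 for Ogn, 0.53 for Lum, 0.49 for Aspn and 0.16 for Dcn, and was level with it for Bgn. The mean of old replicates 2 and 3 minus the young mean was -3.05 for Kera, -2.43 for Chad, -1.56 for Fmod, -1.47 for Omd, -4.62 for Aspn and -1.23 for Dcn. For Lum and Bgn it was -0.09 and -0.11. The differences of Dcn and Aspn lay mostly in old replicates 2 and 3, while that of Kera was at least as large on old replicate 1. A fit with slide row as a block gives the shared-row values as its differences. It called 45 of 20906 genes and 0 members, with limma adjusted p from 0.0746 for Kera to 0.997 for Bgn. Old replicates 2 and 3 have no young array in their row, so row and age cannot be told apart for them.

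Averaged after centring each gene on its own 6-array mean, Kera, Fmod and Chad together stood at 0.65, 1.43 and 1.27 on the young arrays and at -0.89, -1.20 and -1.25 on the old. The average of Lum, Dcn, Bgn and Ogn stood at 0.10, 0.16 and 0.35 on the young arrays and at -0.10, -0.18 and -0.33 on the old. Tendon-rich minus interstitial was 0.91 ± 0.36 in young and -0.91 ± 0.12 in old muscle (SD, n = 3 each), with no overlap. The contrast between the ages was -1.82, and -1.70 within the shared slide row. The members were chosen with earlier results known, so this score was given no test. It was -1.34 without Kera and -1.44 with normexp background correction, whose offset compresses dim signals.

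**Figure D3:**
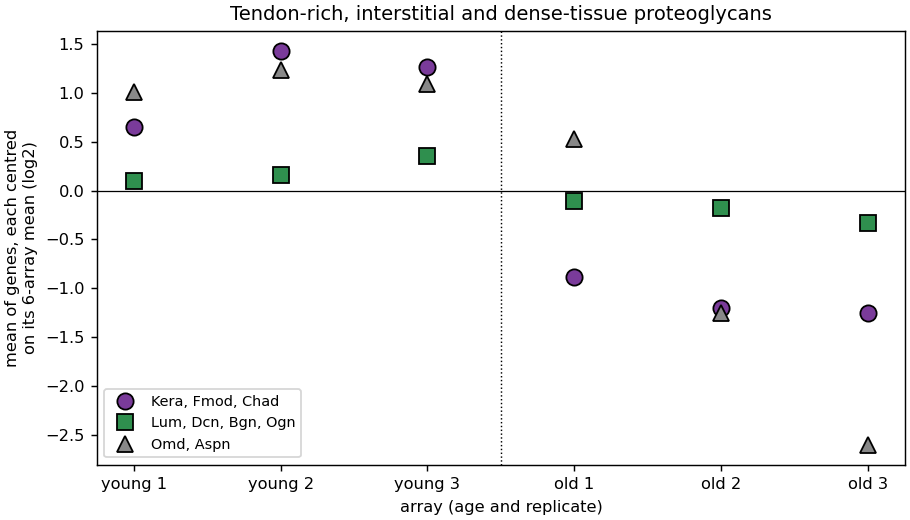
Mean of the tendon-rich (circles), interstitial (squares) and dense-tissue (triangles) proteoglycans on each array, each gene centred on its 6-array mean, in log2 units. The tendon-rich mean is at or below -0.89 on every old array, and the mean of Omd and Aspn runs from 0.52 on old 1 to -2.61 on old 3.

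Kera and Lum, which adjoin on chromosome 10, had unlike profiles. Kera minus its neighbour Lum, both centred, was 1.11, 1.57 and 1.77 in young muscle and -1.49, -1.47 and -1.48 in old. The 3 old values of this pair were close together and far from the young ones. On chromosome 13 the neighbours Omd and Ogn were closer, with Omd minus Ogn at 0.37, 0.71 and 0.05 in young muscle and 0.23, -0.54 and -0.83 in old. Aspn lies on the other side of Omd, and Aspn minus Ogn was 1.71, 1.59 and 0.89 in young muscle, 1.44 on old replicate 1, and -2.07 and -3.57 on old replicates 2 and 3. For both of these pairs old replicate 1 lay inside the young range.

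The profile over the 6 arrays was also set against 13161 other genes with a symbol, by the root mean square difference of centred log2 values. Those nearest to Kera were Grp (0.49), Asb17 (0.53), Col11a1 (0.59), Ptx4 (0.66) and Ecrg4 (0.68), with Chad ninth at 0.75. Grp and Col11a1 were not well above background in old muscle, and Asb17 was on 1 of 3 old arrays. Nearest to Dcn were Lrrn4cl (0.09), Robo4 (0.10), Tmem198b (0.10), Maml2 (0.12) and Agmo (0.12), with Maml2 well above background on 1 of 3 old arrays. Among the members Omd was the nearest to Dcn, at 0.24, while Lum was at 0.66 and Kera at 1.34. These distances describe 6 shared arrays and carry no test.

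Other leucine-rich proteoglycans gave lower values with no call. Of 9 listed, 5 were tested, 4 of them with a negative difference, and 0 passed (median -0.57). That median was -0.96 with slide row as a block and -0.30 with no filter on dim probes. In limma 3 were lower at an unadjusted p under 0.05, a share of 9.12% over all genes. Ecm2, which adjoins Aspn, had a difference of -0.91 ± 0.26 (adjusted p = 0.221), and Chadl, a relative of chondroadherin, -0.57 ± 0.20 (0.283). Tsku, tsukushi, a secreted signalling modulator, had -1.77 ± 0.55 (0.238) but on the old side just 1 of 3 arrays was well above background. Epyc, next to Kera, Optc, Nyx and Podnl1 were too dim to be tested.

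The enzymes that build the sulfated chains had mixed values. In the chondroitin and dermatan sulfate list 19 of 22 genes were tested, 13 with a negative and 6 with a positive difference, and 0 passed (median -0.19). Limma's unadjusted p was under 0.05 for 2 higher and 5 lower genes, against 5.7% and 9.12% of all genes. Chst11, a chondroitin 4-O-sulfotransferase, had 1.62 ± 0.34 (adjusted p = 0.142), with levels of -0.88, -1.30 and -1.41 in young and 0.58, -0.28 and 0.98 in old muscle. Chst7, a chondroitin 6-O-sulfotransferase, had -0.85 ± 0.21 (0.177), and Dsel, of the dermatan sulfate epimerase family, -0.66 ± 0.18 (0.193). Keratan sulfate genes were represented by 4 of 8, with 0 passing (median -0.44) and 1 higher at an unadjusted p under 0.05 (5.7% of all genes). That gene was B3gnt2, which extends lactosamine chains (0.75 ± 0.27, limma adjusted p = 0.287). B4galt4 had -0.50 ± 0.25 and the sulfotransferase Chst1 -0.51 ± 0.28. The median of the keratan sulfate genes was -0.06 with slide row as a block.

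Of 12 collagen chains known as partners of these proteoglycans, 11 were tested and 0 passed (median -0.34), 9 of them with a negative difference and 3 lower at an unadjusted p under 0.05 (9.12% of all genes). That median was -0.0098 without old replicate 1, -0.05 if young replicate 3 was left out, -0.60 if young replicate 2 was, -0.56 if old replicate 3 was, 0.01 with array weights and -1.28 with slide row as a block. Col12a1, which coats fibrils in tendon and fascia, had -1.28 ± 0.18 (limma adjusted p = 0.0644). The type I collagen chain Col1a2 had -1.56 ± 0.36 (0.157) and Col1a1 -1.58 ± 0.56 (0.281). Col1a1 levels were 3.86, 3.76 and 4.33 in young muscle and 1.07, 2.78 and 3.35 in old. Its lowest array was thus old replicate 1, on which Dcn was the highest of the old arrays.

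Ligands and receptors bound by the family were divided in direction. Of 20 genes 19 were tested and 0 passed, 9 with a negative and 10 with a positive difference (median 0.0012). Limma's unadjusted p was under 0.05 for 2 higher and 3 lower genes of 19, against 5.7% and 9.12% of all genes. Mstn, the growth inhibitor myostatin that decorin can bind, had -1.22 ± 0.24 (adjusted p = 0.136). The toll-like receptors Tlr4 and Tlr2, through which soluble biglycan can signal, had 1.41 ± 0.32 (0.152) and 0.70 ± 0.18 (0.184). For both the ages did not overlap, but the share of all genes higher on every old array was not counted. Tgfb1, Tgfb2 and Tgfb3 had -0.17 ± 0.24, 0.47 ± 0.53 and 0.24 ± 0.19 (limma adjusted p = 0.761, 0.701 and 0.569).

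Genes that process or degrade the family gave a median of -0.01 over 10 tested of 13, with 0 passing. That median was -0.44 with slide row as a block and -0.16 without young replicate 2. Limma's unadjusted p was under 0.05 for 1 higher and 2 lower genes of 10, beside the same 5.7% and 9.12%. The metalloprotease Mmp3, or stromelysin, had 3.91 ± 0.88 (adjusted p = 0.151). Its levels were -3.26, -3.39 and -5.87 in young and -0.34, -1.55 and 1.09 in old muscle. Of the young arrays 2 of 3 were well above background for it. Bmp1, the protease that trims the biglycan propeptide, had -0.66 ± 0.21 (0.247), with -0.60 and -0.45 by its other probes. Pcolce2, an enhancer of procollagen cleavage, had -0.78 ± 0.26 (0.271).

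**Figure D4:**
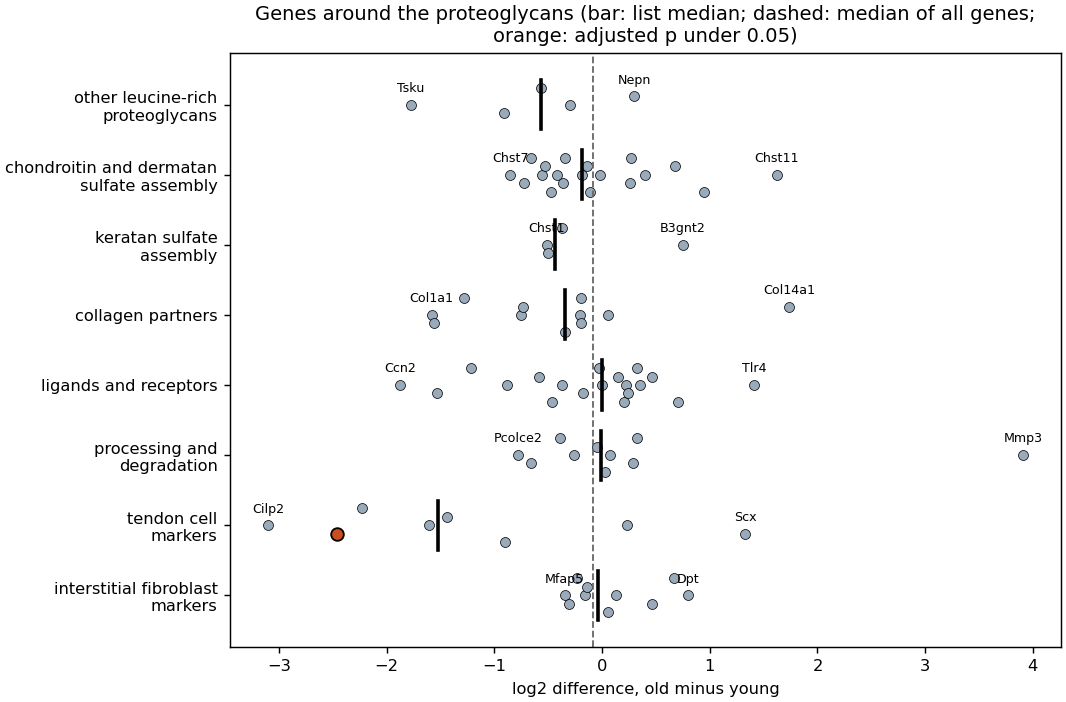
Log2 difference, old minus young, of each tested gene (points) in the lists around the family, with the list median (bar) and the median of all genes (dashed line, -0.08). Tendon cell markers have a median of -1.52 and interstitial fibroblast markers of -0.04. The orange point is Col11a1, the only gene drawn that passed. The old signals of Col11a1 and Cilp2 were too dim to measure, so their positions are not measured sizes. Mkx, Tsku and Ccn4 were well above background on just 1 old array, and Dse on just 1 young array.

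Markers of the cells that make these proteins are given beside the members. Of 8 tested tendon cell markers of 9, 6 had a negative difference (median -1.52). Col11a1, a minor fibrillar collagen, passed limma's threshold (adjusted p = 0.0350). Its old levels of -5.52, -6.31 and -6.36 lay below the dimmest measurable level of those arrays (-4.11, -4.07 and -4.31). That p-value thus rests on old signals too dim to measure, and only a bound can be given for the size. Col11a1 was at least 1.48-fold lower. The matrix gene Cilp2 was at least 5.08-fold lower on the same basis (adjusted p = 0.137). These bounds divide the young mean by the dimmest signal of any probe well above background on each old array, or by the probe's own signal where higher. Tenomodulin (Tnmd), a membrane protein of tenocytes, had -1.60 ± 0.40 (limma adjusted p = 0.178) and was well above background on 2 of 3 old arrays. The transcription factor Scx, scleraxis, had the opposite sign (1.33 ± 0.40, adjusted p = 0.228), with levels of 3.56, 3.07 and 4.19 in young and 4.21, 5.21 and 5.39 in old muscle. The summed linear level of the 8 markers, relative to the 75th percentile, ran from 52.7 to 59.4 on the young arrays and from 36.4 to 68.9 on the old. Scx and Thbs4 held 79.2% to 96.9% of that sum on each array. Without them the other 6 markers summed to 5.11 to 11.1 in young and 2.16 to 4.56 in old muscle. Comp made up most of this smaller sum on every array. Its levels were 2.08, 3.30 and 2.76 in young and 2.03, 1.01 and 0.78 in old muscle. The genes set aside, Scx included, were chosen after their values were seen. In the myotendinous junction list of 3 genes the median was -0.17. Its members were the junction collagen Col22a1, which fell (-1.46 ± 0.15, limma adjusted p = 0.0265), the stress-responsive Ankrd1 (3.41 ± 0.70, 0.138) and the integrin chain Itga7 (-0.17 ± 0.20, 0.720). The ages did not overlap for Ankrd1, a separation whose share over all genes in this direction was not counted. The part of tendon or junction tissue in the members' differences was not tested.

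Of 10 interstitial fibroblast markers all were tested and 0 passed in limma, with 0 at an unadjusted p below 0.05, 5 negative and 5 positive (median -0.04). Their summed level ran from 109.9 to 133.4 in young and from 100.6 to 169.9 in old muscle. Smoc2 was the brightest of the 10 on every array, so this sum is weighted to it. The cell-surface receptor Pdgfra had -0.23 ± 0.15 and Ly6a 0.46 ± 0.24. Of 7 cartilage and bone markers 4 (Matn3, Bglap, Sp7 and Ibsp) were too dim to be tested. Col9a1 was at least 3.47-fold lower (limma adjusted p = 0.0665), while Acan and Sox9 had 0.15 ± 0.28 and 0.0029 ± 0.35. Medians for other cell types were -0.21 for 6 muscle fibre genes, 0.44 for 5 macrophage genes and 0.24 for 4 endothelial genes. They were -0.50 for 4 pericyte and smooth muscle genes, -0.31 for 4 Schwann cell genes and -0.26 for 3 adipocyte genes. In these lists 0 genes passed. Of the endothelial genes 3 had a positive difference, while Cdh5 had -0.81 ± 0.23 (limma adjusted p = 0.209). All 3 old arrays lay below all 3 young arrays for Cdh5, as they did for 15% of all genes.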

How the data were processed

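Spot intensities in the deposited scanner files are processed signals from Agilent Feature Extraction, version 11.0.1.1 per the file headers and 9.5 according to the submitters' processing notes, with background already subtracted. In the authors' deposited value table each intensity equalled, within 1 unit, 100 times the ratio of the processed signal to the 75th percentile of all spots, so its scale is linear, with no centring per gene and the direction of the signal. Its column medians ran from 6 to 9, and it served as an alternative. All 6 arrays shared 1 slide and 1 scan.

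Control spots and outlier-flagged spots (161 to 212 per array) were left out, and spots of a probe were averaged after subtracting the array's 75th percentile of log2 signal. Probes named in the files only by accession were matched to RefSeq symbols (GRCm38.p6): 28331 of 55681 matched. The array grid names mm9, so that table gave no coordinates. A probe was kept when at least 3 of 6 arrays were well above background, and a gene was its brightest kept probe. Each of the 9 members had 1 probe, in a single spot for 8 of them.

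Ages were compared with limma 3.58.1 in R 4.3.3 (lmFit and eBayes, two-sided, Benjamini-Hochberg adjusted p over all genes), and the fit was tested on simulated data. Figures used matplotlib 3.10.9. Members and gene lists were chosen with earlier results of these data known, so lists are given as counts and medians with no test. Named are the members, the 3 genes of lowest p in each pathway list and any that passed, the 5 nearest profiles of Kera and Dcn, and some further list genes chosen after their values were seen. Alternatives changed the normalization, centring, background correction, values, filter, choice of probe, variance model, array weights, replicate or slide row block, and each array.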

Additional observations from a re-analysis of the deposited data

How the results depend on the processing

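Over 18 alternative fits the differences of Kera, Fmod, Chad, Omd, Aspn (17 fits), Lum, Dcn and Ogn kept a negative sign. Bgn reversed when slide row was a block (0.0038) and without young replicate 2 (0.040) or old replicate 2 (0.047), and ran from -0.20 to 0.047 as arrays were left out. Kera's call was lost with no filter on dim probes (-3.20, limma adjusted p = 0.0963, with more genes tested) and when slide row was a block (-3.51, adjusted p = 0.0746); left-out arrays gave -3.48 to -2.86, and its adjusted p ran from 0.0133 to 0.123 over all alternatives. Normexp gave the smallest Kera value, -2.46. Chad passed with median centring (-2.30). Aspn ran from -4.62 to -2.07 as arrays were left out and passed only without old replicate 1. Replicate numbers did not pair the samples: the correlations of same-numbered deviations from the age means were -0.06, -0.27 and 0.03. With the replicate block 5 genes were called and 0 members, Kera at -3.20 (adjusted p = 0.0754).

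Members called were 1 as reported, 2 with median centring, 0 with no filter, 0 when slide row was a block and 0 to 2 as arrays were left out. Genes called were 52 as reported, 42 with median centring, 45 when slide row was a block and 8 with no filter. They were 32 when all 6 arrays had to be well above background, 191 with array weights and 1 to 181 as arrays were left out. The tendon-rich minus interstitial contrast (-1.82) was -1.34 without Kera, -1.44 with normexp, -1.82 with Omd and Aspn added to the tendon-rich group, and -2.005 to -1.65 as arrays were left out. Some of these fits had fewer samples or more genes tested, and the cause of the changes was not tested. Signal over background limits Aspn most, since it was measured on 1 of 3 old arrays.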
